A study of Homo sapiens with 2 samples.

Results

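The genes described here are 10 core parts of the machinery that makes and uses small regulatory RNAs: DICER1, DROSHA, DGCR8, XPO5, TARBP2, AGO1, AGO2, AGO3, AGO4 and TNRC6A. Members are the probe sets that the platform annotation assigns to exactly 1 of these genes, under its current symbol or an older one. An exception is CASC7, which the RefSeq gene table lists as an older name of AGO2. Probe sets annotated to CASC7, alone or together with AGO2, were left out. The members make up 31 of the 54675 probe sets on the array and 9 of the 10 genes. DGCR8 had no probe set of its own, since its 4 probe sets are annotated to both DGCR8 and MIR1306, a microRNA gene that lies inside it on the same strand, so no DGCR8 value is given. The samples were 1 siKMO array, from MDA-MB-231 cultures given siRNA targeting KMO (kynurenine 3-monooxygenase), and 1 control array, from the same line given a control siRNA, both with DharmaFECT for 48 h. MDA-MB-231 is an established triple-negative breast cancer line, and although the labels name siRNA, the array names include shLUC and shK421, terms common for hairpin vectors, which leaves the type of construct unsettled. With 1 array per condition neither replicates nor tests between the conditions exist, and every difference describes this pair of cultures.

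MicroRNAs are cut out of long primary transcripts in steps. In the nucleus the Microprocessor, made of the RNase DROSHA and its RNA-binding partner DGCR8, releases a hairpin, and exportin-5 (XPO5) carries it to the cytoplasm. There DICER1 cuts off the loop, with the double-stranded RNA-binding protein TARBP2 (TRBP) as a partner, and 1 strand is loaded into an Argonaute protein (AGO1 to AGO4). Argonaute binds target messages by the seed at the 5′ end of the small RNA and recruits TNRC6A (GW182), a scaffold that brings in deadenylation and decay enzymes. AGO2 is the Argonaute best known for cutting a fully matched target, the activity that an siRNA relies on, and, per the labels, both arrays come from cells that were given siRNA. The abundance of mature small RNAs was not measured on these arrays.

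Values are robust multi-array average (RMA) levels on the log2 scale, differences are siKMO minus control, and a difference of 1 is 2-fold. Each gene is represented by its brightest probe set, judged by the mean of both arrays, and counts as measured where this mean reaches 6. The levels in both arrays had nearly the same distribution, with medians of 4.43 in siKMO and 4.44 in control and a widest gap at any rank of 0.06. The 3 probe sets of KMO stood at 2.35 to 2.92 in siKMO and 2.11 to 2.95 in control, within the range of 19 genes of unrelated tissues (1.64 to 5.71 and 1.72 to 5.75), so KMO does not check the labels. The 6 genes used as positive markers of the line, VIM, CD44, CAV1, AXL, EGFR and MSN, were all measured. Among genes that should be low in it, ESR1, PGR and FOXA1 lay under 6, whereas ERBB2 (7.37 in siKMO, 7.44 in control) and GATA3 (7.75 and 7.42) lay above it. Of 7 leukocyte, endothelial and fibroblast markers 6 lay under 6, and COL1A1 stood at 6.90 in siKMO and 7.08 in control.

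Along the processing route the members pointed in different directions. By their brightest probe sets DROSHA, XPO5, TARBP2 and TNRC6A were higher in the siKMO array, and DICER1 was lower. The Argonautes were split by sign, with AGO3 (-0.14) and AGO4 (-0.09) only slightly lower. All 9 genes with a probe set were measured; 6 were higher and 3 lower, against 54.8% and 44.1% of the 8997 measured genes. At a threshold of 1.5-fold, AGO1 and DROSHA were higher (2 of 9, against 5.19% of all measured genes) and DICER1 was lower (1 of 9, against 5.41%). None of the 9 reached 2-fold in either direction, which 0.856% of all measured genes did upward and 1.39% downward. The median difference of the 9 was 0.23 and that of all measured genes 0.04. With the CASC7 probe sets counted for AGO2, AGO2 was lower (-0.06) and the member median was 0.08.

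**Figure D1:**
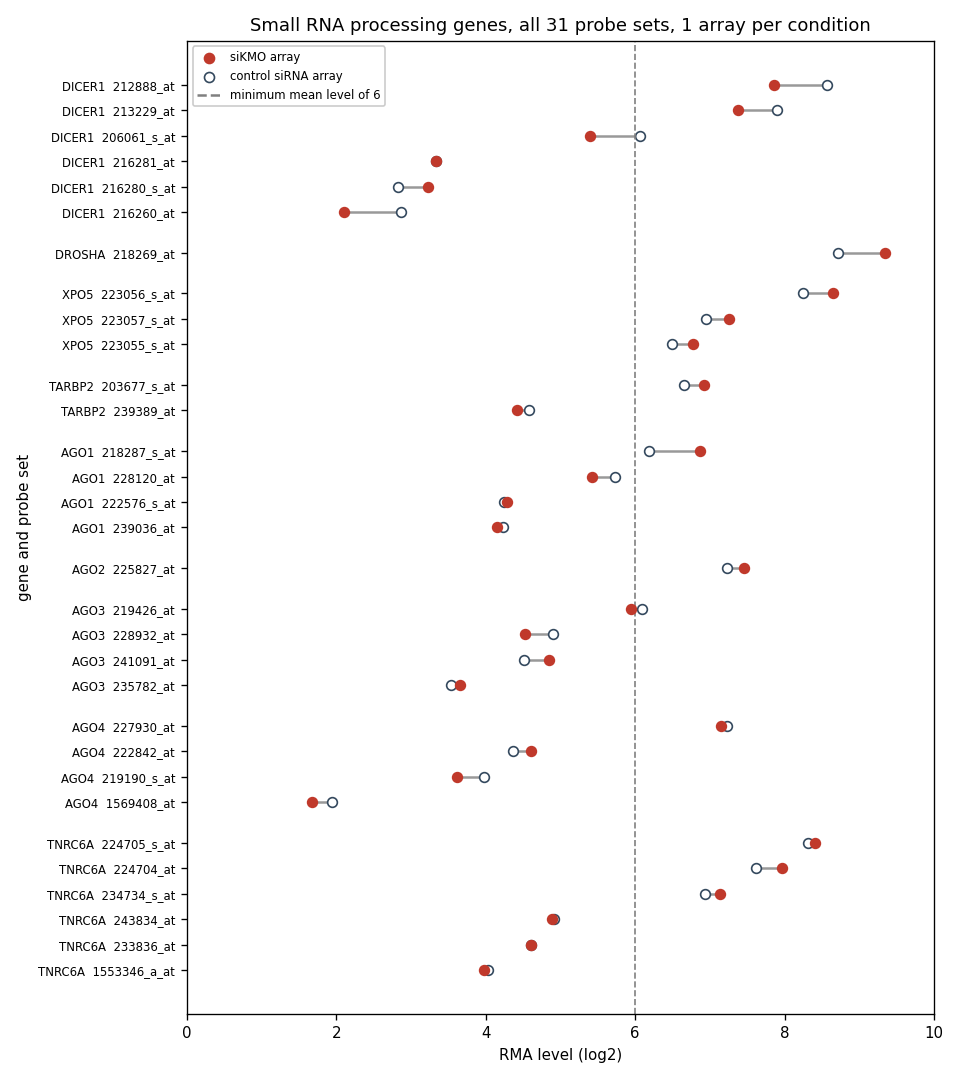
RMA levels (log2, horizontal axis) of all 31 probe sets of 9 small RNA processing genes, with filled points for the siKMO array and open points for the control array, 1 array each. The 3 brightest DICER1 probe sets lie lower in siKMO, while DROSHA and all 3 XPO5 probe sets lie higher; the dashed line marks a level of 6.

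DROSHA, the nuclear RNase that starts the process, has 1 probe set, at 9.34 in siKMO and 8.72 in control. This difference of 0.62 is a 1.54-fold higher level, and 4.39% of all measured genes had a larger one. XPO5, the export receptor for hairpin precursors, was higher with each of its 3 probe sets. They stood at 8.65, 7.25 and 6.77 in siKMO, against 8.24, 6.95 and 6.49 in control, so the differences ran from 0.28 to 0.40. That every measured probe set of a gene is higher was itself common, at 41.3% of the 3777 genes that have at least 2. XPO5 stayed under 1.5-fold with each of them, its largest being 1.32-fold.

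DICER1, the RNase that makes mature microRNAs and siRNAs from hairpins and long duplexes, was the lowest of the members. Its probe set with the highest level stood at 7.86 in siKMO and 8.56 in control, a difference of -0.70 or a 1.62-fold lower level. Only 3.72% of all measured genes had a more negative value. Its other measured probe set stood at 7.38 in siKMO and 7.90 in control, a difference of -0.52. Across the 3777 genes with several measured probe sets, the probe sets of 1 gene scattered around their own mean difference with an SD of 0.18. This is a spread between probe sets on the same pair of arrays, whatever its source, and the spread between cultures is unknown. All measured probe sets were lower in 31.2% of those genes. The third DICER1 probe set was 5.39 in siKMO and 6.06 in control, under the minimum on average, and the other 3 were weak, at 2.11 to 3.33 in siKMO and 2.82 to 3.33 in control, with differences of -0.75, 0.40 and 0.

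TARBP2, the DICER1 partner that helps hand the duplex to Argonaute, was 6.91 in siKMO and 6.65 in control, a difference of 0.26 in the direction opposite to DICER1. Its other probe set was weak, at 4.42 and 4.58. A more positive difference than that of TARBP2 was found for 23.7% of all measured genes, so it lies inside the bulk of the array.

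The 4 Argonautes did not share a direction, although the negative differences of AGO3 and AGO4 were smaller in size than the probe set SD of 0.18. AGO1 was 6.86 in siKMO and 6.18 in control, a difference of 0.68 or 1.60-fold, and 3.28% of measured genes had a larger one. That value rests on 1 probe set. The other 3 AGO1 probe sets lay under 6 in both arrays, at 5.42, 4.29 and 4.15 in siKMO and 5.74, 4.24 and 4.22 in control, with differences of -0.31, 0.05 and -0.07. AGO2 was 7.46 in siKMO and 7.23 in control with its single probe set, a difference of 0.23. A further 3 probe sets are annotated to both AGO2 and CASC7, which the RefSeq gene table lists as an older name of AGO2. The brightest of these stood at 8.31 in siKMO and 8.36 in control, a difference of -0.06, and the next at 7.64 and 7.15, a difference of 0.49, so the direction of AGO2 depends on which probe sets are counted.

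AGO3 was 5.95 in siKMO and 6.09 in control, a difference of -0.14 at the edge of the level minimum, and its 3 other probe sets lay at 3.53 to 4.90 with differences of -0.39 to 0.34. AGO4 was 7.14 in siKMO and 7.23 in control, a difference of -0.09, and its 3 other probe sets lay under 5. AGO4, AGO1 and AGO3 lie next to each other on chromosome 1 in that order in the RefSeq annotation, with a pseudogene, CFAP97P1, between AGO1 and AGO3. The 3 neighbours had differences of -0.09, 0.68 and -0.14 in the same order.

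TNRC6A, the scaffold that binds Argonaute, was 8.40 in siKMO and 8.32 in control, a difference of 0.08. Its other measured probe sets stood at 7.97 and 7.14 in siKMO against 7.62 and 6.93 in control, differences of 0.35 and 0.21, so all 3 were higher and none by 1.5-fold. The remaining 3 TNRC6A probe sets lay under 5 and differed by at most 0.06 in size.

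**Figure D2:**
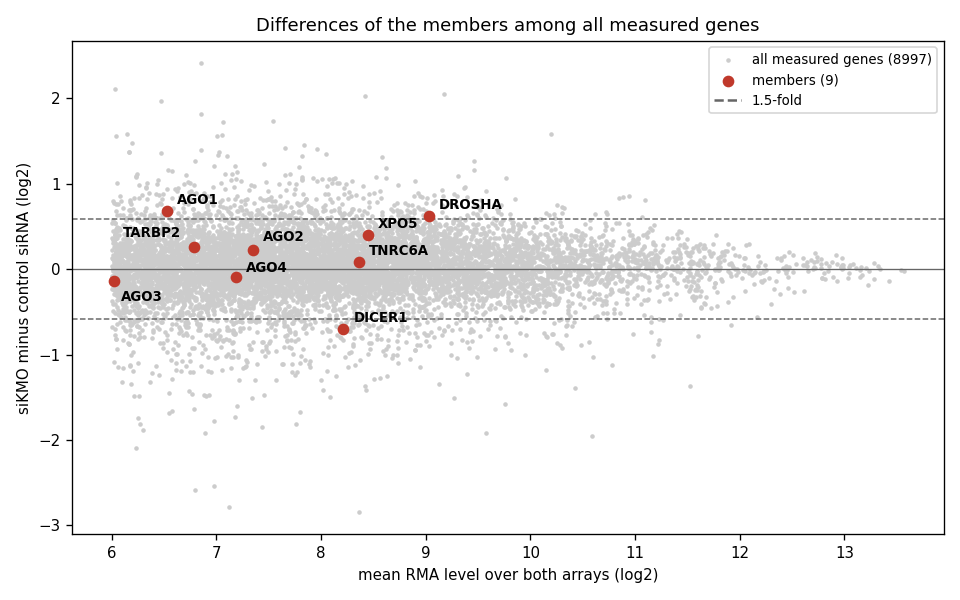
Difference between the arrays (siKMO minus control, log2, vertical axis) against mean RMA level (log2, horizontal axis) for all 8997 measured genes in grey and the 9 members in red, with dashed lines at 1.5-fold. AGO1 (0.68) and DROSHA (0.62) lie above the upper line, DICER1 (-0.70) lies under the lower line, and the other 6 lie between them.

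The starts of these genes are shown for the 3 members past 1.5-fold and for XPO5, the next in size, to set the sequence around the start of members that were higher beside that of DICER1. Each line gives the first RefSeq promoter window of the gene on GRCh38.p14, from 250 bases before to 50 after the start, read 5′ to 3′ on the strand of the gene. Capitals mark matches on either strand to CCAAT (the CCAAT box, bound by NF-Y) or to CGCNTGCG (a core of the NRF1 site); they do not overlap.
DROSHA, chr5:31532044-31532343, minus strand: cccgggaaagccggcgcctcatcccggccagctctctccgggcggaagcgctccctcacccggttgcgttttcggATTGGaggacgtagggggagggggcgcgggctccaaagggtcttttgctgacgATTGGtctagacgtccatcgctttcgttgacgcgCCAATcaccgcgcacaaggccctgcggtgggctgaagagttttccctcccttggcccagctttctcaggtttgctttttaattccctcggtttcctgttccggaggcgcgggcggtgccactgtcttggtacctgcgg
XPO5, chr6:43575989-43576288, minus strand: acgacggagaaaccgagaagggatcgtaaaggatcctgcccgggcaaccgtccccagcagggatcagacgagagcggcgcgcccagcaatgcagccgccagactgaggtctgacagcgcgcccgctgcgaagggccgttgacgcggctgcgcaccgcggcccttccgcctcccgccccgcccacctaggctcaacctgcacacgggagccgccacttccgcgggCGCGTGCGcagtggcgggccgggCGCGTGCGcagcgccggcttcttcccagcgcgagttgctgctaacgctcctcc
AGO1, chr1:35882959-35883258, plus strand: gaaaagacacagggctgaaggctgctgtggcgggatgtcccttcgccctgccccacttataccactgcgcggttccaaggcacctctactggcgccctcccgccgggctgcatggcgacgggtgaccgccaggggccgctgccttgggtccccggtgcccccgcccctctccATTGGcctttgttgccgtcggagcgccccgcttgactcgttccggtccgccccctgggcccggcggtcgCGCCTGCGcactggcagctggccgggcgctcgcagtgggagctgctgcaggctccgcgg
DICER1, chr14:95157480-95157779, minus strand: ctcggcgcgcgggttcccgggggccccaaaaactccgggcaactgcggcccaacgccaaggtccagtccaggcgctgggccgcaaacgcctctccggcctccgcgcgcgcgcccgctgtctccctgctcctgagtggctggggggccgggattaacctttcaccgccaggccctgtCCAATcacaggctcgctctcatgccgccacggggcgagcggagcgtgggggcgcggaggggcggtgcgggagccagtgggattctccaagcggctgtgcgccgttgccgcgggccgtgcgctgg

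The NRF1 letters occur in the XPO5 and AGO1 windows shown and in 10.0% of all 35116 promoter windows of the table. Among the 15 windows searched, which include DGCR8 and several windows each for DICER1 and TARBP2 and leave out AGO2 (not used here), 3 held it, the third being another window of DICER1. This count depends on the spelling: a longer one searched first, the same letters with G before and C after, is in 5.78% of all windows and in 2 of the 15, XPO5 and AGO1 but no DICER1 window. The motifs were picked with the members' values known, and both spellings of NRF1 were tried on these windows. XPO5 has 2 matches. CCAAT occurs in 8 of the 15 windows and in 34.6% of all, with 4 matches in DGCR8 and 3 each in DROSHA and the first TARBP2 window. The E2F spellings TTTCCCGC, TTTCGCGC, TTTGCCGC and TTTGGCGC occur in 0 of the 15 windows and in 3.31% of all. GGGCGG, the GC box bound by SP1, is in 11 of the 15 and in 45.0% of all. Among the DICER1 windows, 2 overlap and hold the same GGGCGG, so that site was counted in each. By gene, the GC box occurs in 8 of 9. The first window of each gene was richer in G and C than the median of all windows (58.7%), and only the later DICER1 windows were poorer. Whether the GC box and NRF1 letters are more frequent here than in windows of similar G and C content was not tested. The motif matches describe letters in a window, and no binding was measured.

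The wider pathway was followed in 9 further lists, chosen from textbook roles with earlier results of these arrays known. Of 13 measured cofactors of the Microprocessor 10 were higher in siKMO and 2 lower, against 54.8% and 44.1% of all measured genes, with a median of 0.14 against 0.04. At 1.5-fold 2 of the 13 were higher, against 5.19% of all. They are NCBP1, the large subunit of the nuclear cap-binding complex (8.25 in siKMO, 7.53 in control, a difference of 0.72), and SRRT (ARS2), which links that complex to primary microRNA transcripts (9.88 and 9.25, a difference of 0.63, and 0.66 with its other measured probe set). SAFB2, which helps DROSHA cut poor hairpins, differed by 0.50. The helicase pair DDX5 and DDX17 went opposite ways, at -0.30 and 0.29. In nuclear transport, the brightest probe set of each of the 7 measured genes was higher, against 54.8% of all measured genes, with a median of 0.21 and none by 1.5-fold. XPO1 and TNPO1 each have another measured probe set that was lower, at -0.14 and -0.10. RCC1, which loads GTP onto RAN, differed by 0.45, RAN itself, the GTPase that exportin-5 needs to bind cargo, by 0.28, and the import receptor TNPO1 by 0.22.

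Partners of DICER1 and RISC had a median of 0.04 over 15 measured genes, against 0.04 of all. Of the 15, 10 were higher and 5 lower, against 54.8% and 44.1% of all measured genes. At 1.5-fold 2 of the 15, GEMIN4 and DHX9, were higher, against 5.19% of all. GEMIN4, found in complexes with Argonaute, was 8.51 in siKMO and 7.62 in control, a 1.84-fold higher level, and its other probe set differed by 0.67. DHX9 (RNA helicase A), which binds RISC and helps load it, stood at 8.24 and 7.50, a difference of 0.74, with 0.51 to 0.90 over 3 probe sets. DDX20, the GEMIN4 partner, differed by 0.33. PRKRA (PACT), the other double-stranded RNA-binding partner of DICER1 beside TARBP2, differed by 0.06. Chaperones that open Argonaute for loading were higher for each of the 10 measured genes by their brightest probe set, against 54.8% of all, with a median of 0.19, although the other probe set of DNAJA2 was lower at -0.30. At 1.5-fold 1 of the 10 was higher, against 5.19% of all: FKBP5, an HSP90 co-chaperone, at 8.59 in siKMO and 7.82 in control (1.70-fold). STIP1, which joins HSP70 to HSP90, differed by 0.47, and HSPA4, an HSP70-type chaperone, by 0.40.

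Of 10 measured GW182 relatives and regulators of Argonaute 7 were lower and 3 higher, against 44.1% and 54.8% of all measured genes, with a median of -0.17. At 1.5-fold 1 was lower and 1 higher, against 5.41% and 5.19% of all. TNRC6B, the paralog of TNRC6A, was 7.11 in siKMO and 7.69 in control, a difference of -0.58, just short of 1.5-fold, and its 4 measured probe sets ran from -0.60 to -0.18. TNRC6C lay under the minimum, at 4.99 and 5.22. P4HA1, a subunit of the prolyl hydroxylase that modifies AGO2, was 9.37 in siKMO and 9.96 in control (1.51-fold lower). ANKRD52, a subunit of the phosphatase that resets phosphorylated AGO2, was 7.19 and 6.28, a 1.87-fold higher level resting on 1 probe set.

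None of the measured genes that act on the targeted message or on the small RNA passed 1.5-fold. Of all measured genes, 5.19% were that much higher and 5.41% that much lower. Of 14 measured CCR4-NOT, PAN and poly(A)-binding genes 9 were higher, against 54.8% of all measured genes, with a median of 0.10. CNOT4 differed by 0.57, the deadenylase CNOT8 by -0.49 (-0.53 to -0.34 over 3 probe sets) and TOB1, which recruits the complex, by -0.33. Of 13 decapping and P-body genes 11 were higher with a median of 0.16, led by the cap-binding protein EIF4E2 at 0.43, EIF4ENIF1 (4E-T) at 0.42 and DCP1A at 0.28. Of 10 genes for tailing, trimming and decay of microRNAs 7 were higher with a median of 0.06. ERI1, an exonuclease that trims small RNA ends, differed by 0.47, TENT2 (GLD2), which adds an A to microRNA ends, by -0.37, and TUT4, which adds U tails to let-7 precursors, by -0.36. LIN28A, which calls TUT4 to let-7, and LIN28B lay near background at 2.55 and 1.87 in siKMO and 2.67 and 1.99 in control.

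**Figure D3:**
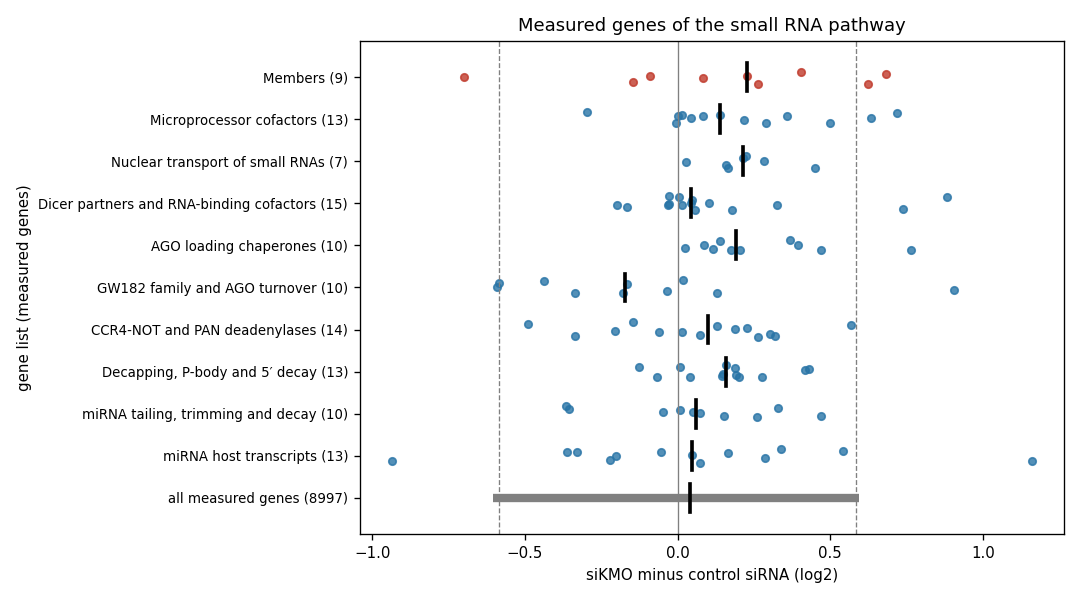
Difference between the arrays (siKMO minus control, log2, horizontal axis) for each measured gene of the members and 9 pathway lists, with the number measured in brackets, a black bar at each median and dashed lines at 1.5-fold. The bottom row shows the median of all 8997 measured genes and, as a grey bar, their central 90% (-0.60 to 0.59); list medians run from -0.17 to 0.23.

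Transcripts that carry microRNAs are the substrate of this machinery, and those that the arrays cover include several of its regulators. Of 1776 microRNA genes in the RefSeq table, those lying on the same strand inside a measured gene gave 453 host genes. Of these, 225 were higher and 225 lower in siKMO, against 54.8% and 44.1% of all measured genes. Their median was 0, against 0.04 of all. At 2-fold, 4 hosts were higher (0.883%, against 0.856% of all measured genes) and 10 lower (2.21%, against 1.39%). The sequences below are the mature microRNAs of host genes described next, shown to place each microRNA in its host and to mark which of them share a seed. They come from RefSeq on GRCh38.p14, with the seed (bases 2 to 8) in capitals.
hsa-miR-106b-5p, in MCM7, chr7:100094043-100094063, minus strand: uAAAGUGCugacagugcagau
hsa-miR-93-5p, in MCM7, chr7:100093815-100093837, minus strand: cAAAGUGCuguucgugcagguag
hsa-miR-25-3p, in MCM7, chr7:100093571-100093592, minus strand: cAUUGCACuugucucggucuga
hsa-miR-32-5p, in TMEM245, chr9:109046272-109046293, minus strand: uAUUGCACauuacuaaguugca
hsa-miR-107, in PANK1, chr10:89592756-89592778, minus strand: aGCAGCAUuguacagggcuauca
hsa-miR-103a-3p, in PANK3, chr5:168560904-168560926, minus strand: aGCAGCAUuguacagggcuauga
hsa-miR-210-3p, in MIR210HG, chr11:568112-568133, minus strand: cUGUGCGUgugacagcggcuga
hsa-miR-218-5p, in SLIT2, chr4:20528299-20528319, plus strand: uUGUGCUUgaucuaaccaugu

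MCM7, a subunit of the replicative helicase whose intron holds miR-106b, miR-93 and miR-25, was 10.04 in siKMO and 8.88 in control, a 2.23-fold higher level. Its other probe set stood at 9.34 and 8.40, a difference of 0.94. miR-106b and miR-93 share the seed AAAGUGC. TMEM245, a membrane protein gene that holds miR-32, was 8.97 in siKMO and 10.00 in control, a 2.05-fold lower level, and its 4 measured probe sets ran from -1.12 to -0.69. miR-25 and miR-32 carry the same seed, AUUGCAC, so hosts of 1 seed family differed in opposite directions. These are levels of the host messages, and the microRNAs inside them can be made at other rates.

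miR-107 and miR-103a share the seed GCAGCAU and are known to target the DICER1 message in breast cancer cells. Their hosts are the pantothenate kinase genes. PANK1, the host of miR-107, was 6.30 in siKMO and 5.76 in control, higher by at least 0.30 with the weaker level taken as 6. PANK3 and PANK2 each hold a copy of miR-103a. PANK3 was 9.60 in siKMO and 9.96 in control, a difference of -0.36, and PANK2 was 9.01 and 8.93, a difference of 0.07, with 0.42 and 0.19 for its other measured probe sets. Any part of these microRNAs in the DICER1 level was not tested.

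MIR210HG, the long noncoding host of the hypoxia-induced miR-210, was 5.58 in siKMO and 6.51 in control, lower by at least 0.51 with the weaker level taken as 6. SLIT2, the guidance ligand whose intron holds miR-218, was 7.43 in siKMO and 6.16 in control, a 2.41-fold higher level, and its 2 weaker probe sets were also higher in siKMO (6.18 and 6.47, against 5.00 and 4.63). TMEM245 and SLIT2 were chosen after their values were seen. In the host list chosen by name, 13 of 27 entries were measured. Of these, 7 were higher and 6 lower, against 54.8% and 44.1% of all measured genes, with a median of 0.05 against 0.04. Only MCM7 passed 2-fold, against 0.856% of all measured genes upward and 1.39% downward. MIR17HG, the primary transcript of the miR-17 cluster, lay near background at 1.62 in both arrays.

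**Figure D4:**
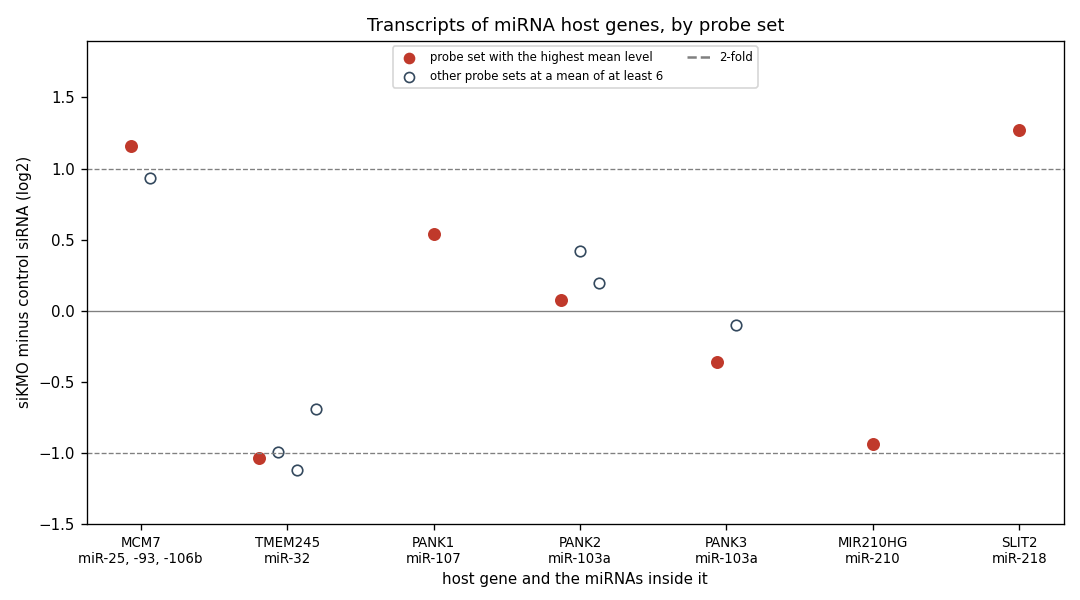
Difference between the arrays (siKMO minus control, log2, vertical axis) for each probe set at a mean level of at least 6 of 7 microRNA host genes, with the brightest probe set of each filled and dashed lines at 2-fold. MCM7 (1.16 and 0.94) lies above 0 and TMEM245 (-1.12 to -0.69) under it, although miR-25 and miR-32 inside them share a seed.

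A set of 6 genes of S-phase entry, picked with earlier results of these arrays known, was higher in the same siKMO array. Its part in the values of the small RNA genes was not tested. CCNE2, MCM5, MCM4, E2F1, PCNA and CDC25A were all higher, against 54.8% of all measured genes. Their median was 1.39, against 0.04 of all, with a range of 0.57 to 1.73. At 1.5-fold 5 of the 6 were higher, against 5.19% of all. Because of how the set was picked, these comparisons describe the 6 genes only and are no test of S-phase genes as a whole.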

How the data were processed

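RNA from 1 siKMO and 1 control culture of MDA-MB-231 was hybridised to Affymetrix U133 Plus 2.0 arrays. The deposited values are log2 levels per probe set made by robust multi-array averaging, per the labels' design text, and were made with Affymetrix Expression Console, per the submitters' processing notes; its version and the set of arrays it normalized are not stated there. RMA quantile normalizes arrays, so a shift of all transcripts cannot be seen, and weak probe sets have no true zero. Precision is limited by the number of arrays.

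Genes were assigned to probe sets from the platform annotation, with symbols updated by gene identifier to RefSeq GRCh38.p14 (41037 of the 41091 probe sets with 1 gene matched; 1801 carried several genes and named none, 11721 were not listed and 62 were array controls). Differences, medians and counts at 1.5-fold and 2-fold were computed with pandas 2.3.3 in Python 3.11.15, and the calculation was tested on simulated data. The alternatives changed the choice of probe set, the minimum level, the centring and the treatment of weak levels. Named are all members, in each list up to 3 genes that differed most in size, and KMO; any others were picked with their values known. The members and lists were chosen with earlier results of these data known, and the promoter motifs and the search for microRNA hosts by coordinates were added after the values had been seen.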

Additional observations from a re-analysis of the deposited data

How the results depend on the processing

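No result has a replicate check. There were 9 alternative settings, 1 of them chosen after seeing the data. Of 135 counts and list medians, 129 moved by less than the probe set SD of 0.18 or stayed within 1.5 times. That limit is wider than most of the list medians, so it let a change of sign pass for the host list. Settings that changed only the minimum level, the centring or the weak levels kept the same brightest probe set of each gene. The counts of members past 2-fold were 0 in every setting. Many of the 129 values could therefore hardly move, and their number is a weak check. The 3 members past 1.5-fold kept their sign where they were measured (AGO1 in 6 of the 9, DICER1 in 8). For DROSHA and AGO1 this is no check. DROSHA has 1 probe set, and AGO1 kept the same probe set wherever it was measured, so only centring moved them. The number of members at least 1.5-fold higher, 2 here, was 1 with the mean of all probe sets (DROSHA alone, 4 members being measured), 1 when probe sets whose names end in _x_at or _s_at were left out (AGO1, XPO5 and TARBP2 then had no measured value), 1 at a minimum level of 7 and 1 after centring on the median of all measured genes, where DROSHA was 0.58. The number at least 1.5-fold lower, 1 here, was 0 with the mean of all probe sets, since DICER1 then lay under the minimum. The deadenylase median of 0.10 was -0.0902 with the mean of all probe sets, and the host list median of 0.05 was -0.06 with probe sets ending in _x_at or _s_at left out. The member median ran from 0.07 to 0.28, the DICER1 difference from -0.74 to -0.61 where it was measured, and that of DROSHA from 0.58 to 0.62. TNRC6A differed by 0.35 with those probe sets left out, and AGO2 by -0.06 with CASC7 merged. No paired analysis was possible because each condition has 1 array.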

Other observations

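Sensors of double-stranded RNA, which can meet transfected siRNA, differed little between the arrays. Of 11 sensors and adaptors with a probe set 4 lay under the minimum. Of the 7 measured 6 were higher in siKMO and 1 lower, against 54.8% and 44.1% of all measured genes. None passed 1.5-fold, against 5.19% higher and 5.41% lower of all, and the median was 0.05 against 0.04. OAS3, which makes the activator of RNase L, was 7.25 in siKMO and 6.87 in control, RIGI was 8.74 and 8.55, and MAVS, the mitochondrial adaptor of RIGI, was 8.01 and 7.85. The 3 measured MAVS probe sets ran from -0.22 to 0.32, with 1 of them lower. OASL was 7.99 in siKMO and 8.35 in control. The kinase EIF2AK2 (PKR) differed by 0.01 and the editing enzyme ADAR by 0.04.

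The PIWI branch, which works in germ cells, was near background in both arrays. Of 13 genes with a probe set 12 lay under the minimum, among them PIWIL1 (1.40 in siKMO, 1.52 in control), PIWIL2 (4.16 and 4.50) and PIWIL4 (4.48 and 4.59). The exception was TDRKH, a tudor domain protein of mitochondria, at 6.88 in siKMO and 6.66 in control.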
